A study of Mus musculus with 6 samples.

Results

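Genes that copy the genome and that carry cells from G1 into S phase were followed in 6 tumours of the mouse hepatoma line Hep1-6. The set held 48 genes, picked by name from the 34745 rows of the expression table, and each was read in all 6 libraries. It covers origin licensing (4 genes), the MCM helicase (6), helicase activation (6), DNA polymerases and primase (6), the sliding clamp and its loader (6), the RPA complex (3), Okazaki fragment joining (2), nucleotide supply (5), E2F factors and cyclin E with its kinase (6), chromatin assembly and maintenance (3) and the checkpoint kinase gene Chek1. The cells had been grown in DMEM with serum and placed under the skin of C57BL/6J mice, whose diet was either normal (ND, 3 tumours) or high in cholesterol (HCD, 3 tumours). The diet was the only labelled difference between the groups. Age and sex of the mice, the length of feeding and the size of the tumours are not given in the labels. All tumours came from a single established line placed away from the liver, and each library was made from bulk tumour tissue, so host cells were sequenced together with the hepatoma cells. The labels number the tumours 1 to 3 within a diet, with no statement that the mice differed, so the p-values cover no more than the spread between the samples at hand, which may be partly technical.

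Replication is prepared in G1, when the origin recognition complex, Cdc6 and Cdt1 load the MCM helicase onto DNA. In S phase the helicase is switched on by Cdc45 and the GINS complex, and polymerases work behind it while PCNA holds them on the template. E2F transcription factors drive many of these genes together as cells pass from G1 into S phase. The RNA of these genes is therefore widely used as a sign of proliferation in liver tumours.

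E2F-type promoter letters were common among these genes. RefSeq promoters on GRCm38.p6, each 300 bases long and running from 250 bases before to 50 after the start, were matched by symbol for 39 of the 48 genes (45 promoters). No entry was matched for Rfc2, Gins1, Pole, Gins2, Gins4, Ccne2, Prim2, Mcm4 and Gmnn. The letters TTTCCCGC, TTTCGCGC, TTTGCCGC and TTTGGCGC were searched on both strands, and a match on 1 strand can overlap a match on the other. At least 1 of them was present in 15 of the 45 promoters (33.3%), against 2.27% of all 32851 promoters of that length and 3.78% of the 12066 promoters of tested genes. CCAAT, also searched on both strands, was in 27 of the 45 (60%) and in 37.4% of all promoters. Of 16 promoters of mitosis and spindle genes, 1 (6.25%) held E2F-type letters and 14 (87.5%) held CCAAT. A match is a description of the letters and not a measured binding site. The search was added after expression values had been seen.

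Of the 15 genes with a match, the first match read TTTCCCGC in 6, TTTCGCGC in 5 and TTTGGCGC in 4. The windows below show 3 genes for each spelling, in that order, with the match in capitals and 10 bases on either side where the promoter extends that far. Each is turned so that the match reads from its TTT end, and the strand is that of the letters shown. They are printed to show the letters that were found and their surroundings. The likeness of the core is set by the search.
Cdc6 (chr11:98908003-98908030, minus strand): ccccaggcgaTTTCCCGCtctccaccgg
Gins3 (chr8:95633508-95633535, minus strand): tcaaactcgcTTTCCCGCgccgcactcg
Mcm3 (chr1:20820276-20820303, plus strand): cttcccaagtTTTCCCGCcacggaagtt
Orc1 (chr4:108579417-108579444, minus strand): ggagaaaactTTTCGCGCcactaaccga
Rfc3 (chr5:151651201-151651228, minus strand): cgtcgcacgcTTTCGCGCtcgcgggaaa
Uhrf1 (chr17:56304118-56304145, plus strand): ccgagtcgggTTTCGCGCgcccaggcgt
Cdt1 (chr8:122568037-122568064, plus strand): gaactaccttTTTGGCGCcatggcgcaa
E2f2 (chr4:136172303-136172323, plus strand): cggcatatagTTTGGCGCtaa
Pola1 (chrX:93632276-93632303, plus strand): cgggagtgcaTTTGGCGCcctgtgatga

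The first match lay on either side of the start. Counting from the RefSeq start (the base before it is -1, the start itself 1), its left end along the gene was at -10 in Rfc3, -27 in Orc1 and -41 in Gins3. It was at -138 in Cdc6 and in Pola1 and at -185 in Uhrf1. In Mcm3, Cdt1 and E2f2 it lay after the start, at 20, 33 and 40.

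The 250 bases before the start are printed whole for 3 genes to which the diet comparison returns. Mcm5 and Mcm6, both subunits of the helicase, held 2 and 3 matches in this stretch. In each, a pair of matches on opposite strands overlapped to give the longer run of capitals. E2f8, which encodes an E2F family repressor, held none of the E2F-type letters and 1 CCAAT.
Mcm5 (chr8:75109259-75109508, plus strand): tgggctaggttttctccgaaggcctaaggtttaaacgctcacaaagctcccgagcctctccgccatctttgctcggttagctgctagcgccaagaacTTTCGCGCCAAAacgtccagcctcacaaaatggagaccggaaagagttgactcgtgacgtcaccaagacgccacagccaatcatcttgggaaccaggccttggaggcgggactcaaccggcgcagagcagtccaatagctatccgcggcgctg
Mcm6 (chr1:128359706-128359955, minus strand): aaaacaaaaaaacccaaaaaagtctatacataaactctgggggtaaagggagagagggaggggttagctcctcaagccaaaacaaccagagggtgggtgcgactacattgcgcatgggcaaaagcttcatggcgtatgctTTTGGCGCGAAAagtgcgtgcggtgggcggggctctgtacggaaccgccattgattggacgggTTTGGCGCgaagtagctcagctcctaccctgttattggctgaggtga
E2f8 (chr7:48881597-48881846, minus strand): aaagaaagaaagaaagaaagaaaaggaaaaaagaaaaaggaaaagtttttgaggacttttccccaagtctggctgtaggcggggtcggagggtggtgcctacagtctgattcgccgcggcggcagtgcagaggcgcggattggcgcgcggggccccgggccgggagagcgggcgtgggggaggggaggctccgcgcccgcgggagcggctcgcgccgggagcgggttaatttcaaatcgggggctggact

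Library sizes recovered from the steps in the values ran from 20351635 to 26228072 fragments, with ND 2 the largest, and 11495 to 12050 genes reached 1 FPKM (fragments scaled to gene length and library size) in a library. Of 6 hepatoma markers, Alb (1176 to 1672 FPKM), Rbp4 (223 to 267 FPKM) and Afp (109 to 197 FPKM) were abundant in every library and Ttr was at 5.61 to 12.9 FPKM, while Apoa2 and Serpina1b were at most 0.415 FPKM. RNA of host cell markers differed between libraries within a diet. The 8 skeletal muscle markers summed to 735 FPKM in ND 2 and 841 FPKM in HCD 1, to 86.0 FPKM in HCD 2 and to at most 11.9 FPKM in the other 3 libraries. Pvalb was the muscle marker listed at 0, in ND 1. Summed T cell markers (8 genes) were 6.84 to 30.8 FPKM in ND and 22.7 to 55.2 FPKM in HCD, and summed macrophage markers (8 genes) were 255 to 608 FPKM in ND and 419 to 1006 FPKM in HCD, both highest in HCD 2. Summed neutrophil markers (5 genes) were 39.8 to 101 FPKM in ND and 37.3 to 39.6 FPKM in HCD.

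The comparison of diets asked whether replication and G1/S genes were expressed at another level in tumours of mice fed cholesterol. Of the 48 genes, 47 had a mean of at least 0.5 FPKM and were tested, and Fen1 was not. No gene of the set was called at an adjusted p of 0.05 (limma on log2(FPKM + 1), Benjamini-Hochberg over all 13417 tested genes), and neither was any other gene, so the share called was 0.0% in each direction. The lowest adjusted p in the set was 0.794. In bulk tissue, fewer cycling cells and less RNA per cycling cell cannot be told apart.

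At an unadjusted p under 0.05, Gins3 and Ccne1 had higher (4.26% of the 47) and E2f8 lower values (2.13%) in HCD tumours. Among all tested genes, 2.56% passed that mark with higher and 3.32% with lower values, 789 genes in all (707 by limma-voom on recovered reads, which also called none). For 3 genes (Gins3, Ccne1 and Rfc4) every HCD tumour lay above every ND tumour, and for 1 (E2f8) every HCD tumour lay below. These are 6.38% and 2.13% of the 47 genes, beside 5.98% and 6.13% of all tested genes in the same directions.

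Differences in the set were small. The median difference, HCD minus ND, was 0.03 on the log2(FPKM + 1) scale, beside 0.02 over all tested genes, and the median size regardless of sign was 0.05 beside 0.09. Of the 47 genes, 30 had a higher mean in HCD (63.8%), beside 55.7% of all tested genes. The 95% interval of the difference lay within 0.5 of 0 for 41 of the 47 and within 1 of 0 for all 47, so for each tested gene a change of the log2 value by more than 1 lies outside its interval. Over all tested genes those intervals held for 10018 and 12533 of 13417. The 15 genes with E2F-type letters had a median difference of 0.03 and 10 higher means. The 23 tested genes whose matched promoter lacked the letters had a median of 0.04 and 15 higher means.

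**Figure D1:**
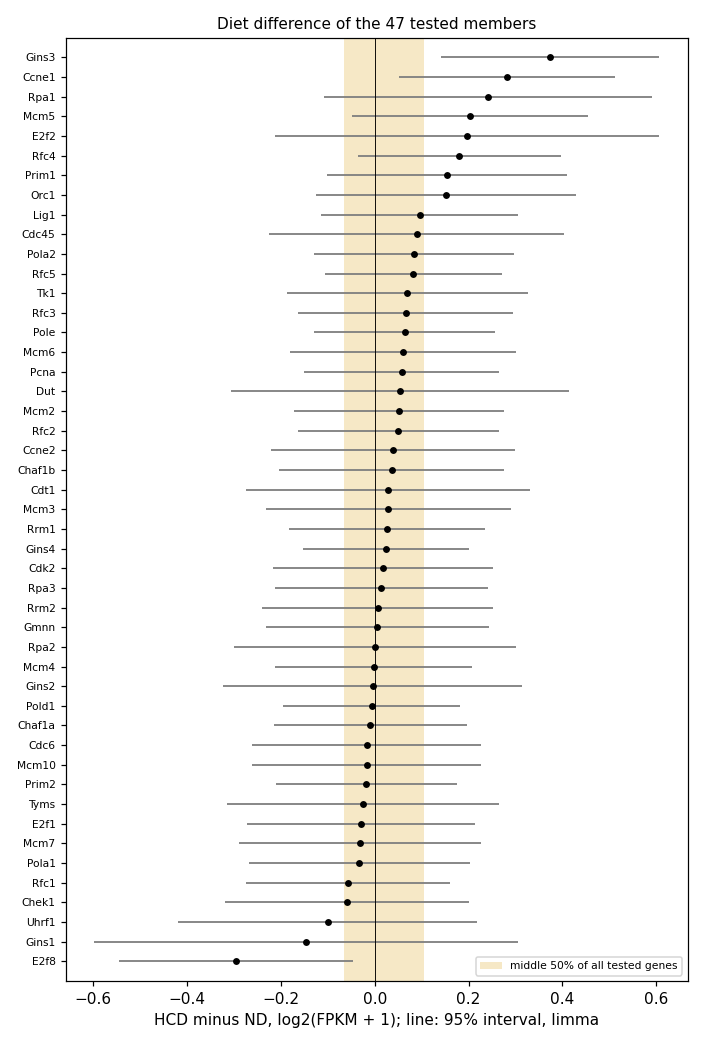
Difference between diets for each of the 47 tested genes (horizontal axis, HCD minus ND in log2(FPKM + 1) units; points, estimate; lines, 95% interval from limma), with the middle 50% of all tested genes shaded. Gins3 (0.37) and E2f8 (-0.29) are at the ends, and the intervals of Gins3, Ccne1 and E2f8 are those that leave out 0.

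The direction of the set as a whole turned on single libraries. Without ND 3, 19 of 47 genes had a higher mean in HCD and the median difference was -0.03. Without ND 2, the count was 45 and the median 0.10, and without HCD 3 they were 20 and -0.01. When ND 2 and HCD 1, the libraries richest in muscle RNA, were both left out, 42 genes had a higher mean and the median was 0.10. No gene of the set was called in any of these fits.

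Licensing genes differed little between diets. Orc1, the largest subunit of the origin recognition complex, was at 1.03, 1.61 and 1.25 FPKM in ND 1, ND 2 and ND 3, in that order as throughout, and at 1.69, 1.46 and 1.48 FPKM in HCD 1, HCD 2 and HCD 3. The groups overlapped, since ND 2 was above 2 of the 3 HCD tumours. The difference was 0.15 ± 0.11 (SE) on the log2(FPKM + 1) scale, with a 95% interval of -0.13 to 0.43. With 0.1 added to the FPKM in place of 1, it was 0.25. Cdc6, which helps load the helicase, averaged 3.33 ± 0.533 FPKM in the ND tumours and 3.26 ± 0.0443 FPKM in the HCD tumours (SD, n = 3). Cdt1, the other loading factor, had means of 28.8 ± 4.21 and 29.3 ± 2.87 FPKM, and Gmnn, which encodes the Cdt1 inhibitor geminin, had means of 13.3 ± 1.70 and 13.3 ± 0.730 FPKM. In these 3 genes the differences were 0.03 or less in size.

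The MCM helicase is a ring of 6 different subunits, Mcm2 to Mcm7, and the HCD mean was above the ND mean for 4 of them and below it for 2, none past the test. Mcm5 gave the largest difference, with 24.6, 29.9 and 22.6 FPKM in ND and 29.3, 28.9 and 30.4 FPKM in HCD. ND 2 lay inside the HCD range, so the groups overlapped, and the difference was 0.20 ± 0.10 (SE, unadjusted p = 0.0966, adjusted p = 0.794). Mcm2 was at 14.8, 17.8 and 15.1 FPKM in ND and at 17.2, 14.999 and 17.2 FPKM in HCD, a difference of 0.05. Mcm6 was at 44.7, 53.5 and 41.8 FPKM in ND and at 47.8, 46.5 and 51.2 FPKM in HCD, a difference of 0.06. Its highest and its lowest values were both in ND tumours. Mcm3 differed by 0.03, Mcm4 by -0.002 and Mcm7 by -0.03.

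Helicase activation held the gene with the lowest p of the set. Gins3 (chr8:95633453-95645060, plus strand, GENCODE M21 on GRCm38, as for the positions that follow) encodes a subunit of the GINS complex that joins Cdc45 on the MCM ring. It was at 4.06, 4.13 and 3.30 FPKM in ND and at 5.46, 5.50 and 4.78 FPKM in HCD. All 3 HCD values lay above all 3 ND values. The difference was 0.37 ± 0.10 (SE), with a 95% interval of 0.14 to 0.61, an unadjusted p of 0.00736 and an adjusted p of 0.794, which put it 84th by p among all tested genes. Leaving out each library in turn gave differences of 0.29 to 0.43.

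In the other GINS subunits the groups overlapped. Gins1 was at 7.69, 9.04 and 7.51 FPKM in ND and at 9.54, 5.35 and 7.20 FPKM in HCD, with the highest and the lowest value both in HCD. Its difference was -0.15 ± 0.19 (SE), and without HCD 2 it was 0.04. Gins2 averaged 4.18 ± 0.699 FPKM in ND tumours and 4.15 ± 0.595 FPKM in HCD tumours, and Gins4 had means of 20.3 ± 1.14 and 20.7 ± 1.45 FPKM (SD, n = 3). No test of the difference between subunits was made. Cdc45 had means of 6.36 ± 0.596 and 6.88 ± 1.21 FPKM, and Mcm10, which helps the active helicase unwind DNA, had means of 2.97 ± 0.460 and 2.90 ± 0.179 FPKM.

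Polymerase and primase genes gave differences from -0.03 to 0.15. Prim1, the catalytic primase subunit that lays RNA primers, gave the largest difference, averaging 7.42 ± 1.06 FPKM in ND tumours and 8.34 ± 0.637 FPKM in HCD tumours, with a difference of 0.15 ± 0.11 (SE). Pola2 (0.08), a subunit of polymerase alpha, and Pole (0.06), the catalytic subunit of the leading-strand polymerase, had higher means in HCD. Pola1, Prim2 and Pold1, the catalytic subunit of polymerase delta, had differences from -0.03 to -0.01. ND 3 was the lowest library in 5 of these 6 genes.

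The clamp gene Pcna had the highest mean level of the set in deposited units, at 55.0, 65.7 and 54.1 FPKM in ND and 58.1, 60.6 and 62.7 FPKM in HCD. ND 2 was above and the other ND tumours below all HCD tumours, and the difference was 0.06 ± 0.09 (SE), with a 95% interval of -0.15 to 0.27. Among the 5 subunits of replication factor C, which loads the clamp, Rfc4 (chr16:23113943-23127737, minus strand) was the one whose groups did not overlap. It was at 5.50, 5.41 and 4.67 FPKM in ND and at 5.53, 6.64 and 5.89 FPKM in HCD, and ND 1 and HCD 1 were separated by only a small margin. The difference was 0.18 ± 0.09 (SE, unadjusted p = 0.0889, adjusted p = 0.794). Rfc1, the largest subunit, was at 7.52, 8.96 and 7.27 FPKM in ND and 7.22, 7.36 and 8.07 FPKM in HCD, a difference of -0.06, and Rfc2, Rfc3 and Rfc5 differed by 0.05, 0.07 and 0.08.

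RPA coats exposed single-stranded DNA and has 3 subunits. Rpa1, the large subunit, was at 20.5, 25.9 and 18.1 FPKM in ND and at 26.7, 22.2 and 27.3 FPKM in HCD. The groups overlapped through ND 2 and HCD 2, and the difference was 0.24 ± 0.14 (SE, 95% interval -0.11 to 0.59). Rpa2 had means of 6.13 ± 1.15 and 6.07 ± 0.412 FPKM and Rpa3 of 12.7 ± 1.04 and 12.8 ± 1.32 FPKM (SD, n = 3), with differences of -0.0001 and 0.01.

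Of the Okazaki fragment genes, Lig1, the ligase that seals the fragments, averaged 13.1 ± 1.41 FPKM in ND tumours and 14.04 ± 0.779 FPKM in HCD tumours, with a difference of 0.10 ± 0.09 (SE). Fen1, the nuclease that trims the flap before sealing, was almost without counted reads. It was at 0.0812, 0.0653 and 0.104 FPKM in ND and at 0.105, 0.0908 and 0.0614 FPKM in HCD, which is 9 to 15 recovered reads a library. Lig1 had 1604 to 2477 and Pcna 3916 to 6045 reads a library. In the GENCODE M21 annotation 84.2% of the exon bases of Fen1 (chr19:10199132-10204169, minus strand) are shared with exons of Tmem258 and Gm10143 on the opposite strand, which had mean levels of 13.4 and 0.171 FPKM. How reads in shared exons were counted is not stated in the labels, and the part of this overlap in the low value was not tested.

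Nucleotide supply genes differed by at most 0.07 between diets. Rrm1, the large subunit of ribonucleotide reductase and the member with the second highest deposited level, was at 57.4, 59.4 and 50.6 FPKM in ND and at 56.9, 52.3 and 61.2 FPKM in HCD, a difference of 0.03. Rrm2, its small subunit, had means of 25.6 ± 3.08 and 25.7 ± 2.07 FPKM, Tk1, which salvages thymidine, of 7.59 ± 0.903 and 7.999 ± 0.815 FPKM, and Tyms, which makes thymidylate, of 3.27 ± 0.467 and 3.19 ± 0.472 FPKM (SD, n = 3). Dut, which keeps uracil out of DNA by removing dUTP, varied most among the HCD tumours, at 34.1, 39.4 and 51.6 FPKM, against 39.1, 42.1 and 37.5 FPKM in ND. Its lowest and highest values were both in HCD, and the difference was 0.05 ± 0.15 (SE).

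In the E2F and cyclin E group, members lay on both sides of 0. Ccne1 (chr7:38097984-38107534, minus strand), which encodes cyclin E1, was at 4.63, 5.20 and 4.34 FPKM in ND and at 5.36, 6.65 and 5.89 FPKM in HCD, with no overlap. The difference was 0.28 ± 0.10 (SE), with a 95% interval of 0.05 to 0.51, an unadjusted p of 0.0238 and an adjusted p of 0.794. Leaving out each library in turn gave 0.21 to 0.35. Its close relative Ccne2 averaged 4.66 ± 0.489 FPKM in ND tumours and 4.82 ± 0.611 FPKM in HCD tumours (SD, n = 3), a difference of 0.04. Cdk2, the kinase that cyclin E activates, had means of 29.4 ± 1.69 and 29.9 ± 3.55 FPKM, a difference of 0.02.

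E2f8 (chr7:48866429-48881596, minus strand) had lower values in HCD. It was at 7.09, 5.80 and 7.85 FPKM in ND and at 5.41, 5.43 and 5.39 FPKM in HCD. The HCD tumours were nearly alike and all below the lowest ND tumour, ND 2. The difference was -0.29 ± 0.10 (SE), with a 95% interval of -0.54 to -0.05, an unadjusted p of 0.0273 and an adjusted p of 0.794, and without single libraries it ran from -0.40 to -0.21. E2f8 was also the gene in which ND 3, the lowest library for most of the set, was the highest. Of its exon bases, 11.2% are shared with Gm2788 on the opposite strand.

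The activator genes E2f1 and E2f2 gave other patterns. E2f1 was at 7.30, 8.34 and 6.56 FPKM in ND and at 6.51, 7.58 and 7.55 FPKM in HCD, with overlapping groups and a difference of -0.03 ± 0.10 (SE). E2f2 was at 1.75, 3.06 and 2.57 FPKM in ND and at 2.45, 3.48 and 2.87 FPKM in HCD, with a difference of 0.20 ± 0.17 (SE) that was 0.04 without ND 1. Its highest library was 1.99 times its lowest, the widest range among the tested genes of the set. E2f7, the other atypical repressor of the family, is not one of the 48 and was looked up after the values of E2f8 had been seen. It was at 1.24, 1.16 and 1.35 FPKM in ND and at 1.15, 1.14 and 1.13 FPKM in HCD. The groups did not overlap, by a small margin, a pattern shown by 6.13% of all tested genes. The difference was -0.07 ± 0.08 (SE, unadjusted limma p of 0.385, adjusted p of 0.846). Of the other E2F genes outside the set, E2f4 (0.13), E2f5 (0.11) and E2f6 (0.23) had higher means in HCD and E2f3 (-0.09) a lower one.

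Chromatin genes gave differences from -0.10 to 0.04. Uhrf1, which recruits the maintenance methyltransferase to newly copied DNA, was at 26.0, 31.6 and 21.7 FPKM in ND and at 24.9, 23.0 and 25.1 FPKM in HCD. The HCD tumours lay within the ND range, and the difference was -0.10 ± 0.13 (SE). Chaf1a and Chaf1b, subunits of the assembly factor that places histones behind the fork, differed by -0.01 and 0.04. Chek1, the kinase that restrains the cycle when forks stall, was at 2.11, 2.62 and 2.16 FPKM in ND and at 2.54, 1.92 and 2.05 FPKM in HCD, a difference of -0.06 ± 0.11 (SE).

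**Figure D2:**
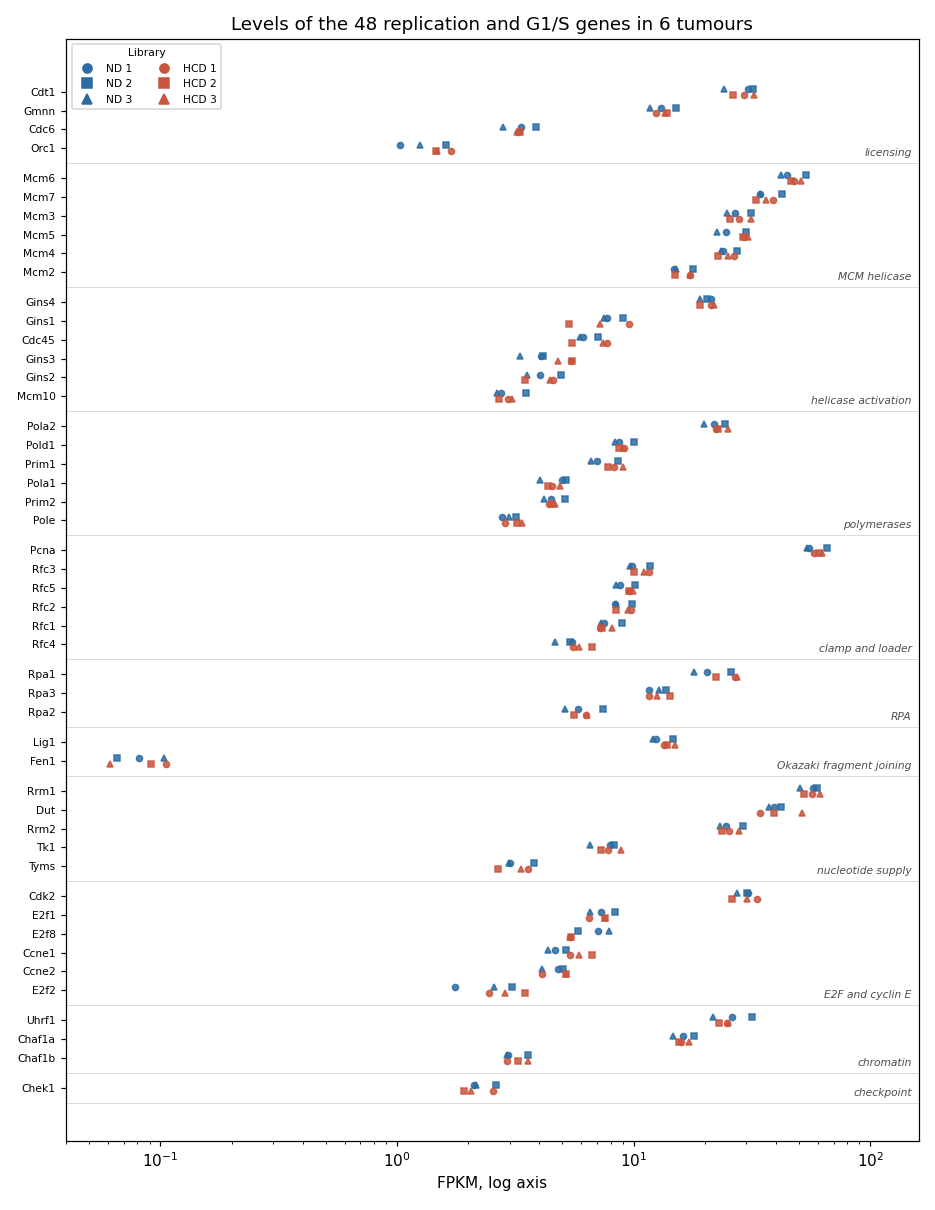
FPKM of each of the 48 genes in each library (horizontal log axis; blue, ND; red, HCD; marker shape, replicate number), ordered by role and then by mean. The 6 points of a gene mostly lie close together, and Fen1 at 0.0614 to 0.105 FPKM stands far below the other 47 genes, the lowest of which is Orc1 at 1.03 to 1.69 FPKM.

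Levels of different genes can be set side by side only with care, since the deposited unit rests on a gene length. For 35 of the 48 genes, the length that returns whole reads is the sum of all distinct annotated exons, in which overlapping exons of different transcripts count repeatedly. That length was 1.00 to 2.89 times the union of the exons, with a median of 1.38. The ratio of FPKM between diets within a gene is not touched by it. The difference in log2(FPKM + 1) is, through the added 1, and most in genes of low level. Recomputed per kilobase of the exon union, Pcna had the highest level of these 35, with a mean of 86.8 (79.1 to 96.0 over the 6 libraries). Mcm6 (59.3, 52.1 to 66.7), Mcm7 (55.9, 50.4 to 65.0), Mcm3 (49.96, 44.5 to 55.8) and Dut (49.5, 41.5 to 62.8) came next, and each of these overlapped its neighbour in the order. Mcm2 was at 20.8 (19.1 to 22.9) on that scale, with no overlap with the other 3 MCM genes measured.

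Other complexes also had unequal levels among their genes on the exon-union scale. Rpa1 was at 30.2 (23.3 to 35.2), Rpa3 at 15.2 (13.8 to 16.9) and Rpa2 at 8.40 (7.08 to 10.2), with no overlap. Of the clamp loader genes, Rfc3 was at 19.0 (17.2 to 21.01) and Rfc5 at 16.4 (14.7 to 17.8), which overlapped, while Rfc1 was at 11.6 (10.9 to 13.5) and Rfc2 at 10.95 (10.1 to 12.0), which overlapped as well. At the low end were E2f2 at 2.70, Orc1 at 1.799 and Fen1 at 0.245. Counting error is small beside this for all but Fen1, since the other 34 genes had 104 to 8166 reads a library.

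The same annotation shows how far each gene stands clear of its neighbours. Of the 48 genes, 32 share no exon base with another gene on either strand and 16 share some. Besides Fen1, 2 genes share more than 50% of their exon bases, Gins2 (67.3%, with Gse1) and Chaf1a (52.5%, with Ubxn6). Gse1 and Ubxn6 lie on the opposite strand and had mean levels of 4.80 and 4.86 FPKM. Whether counting used the strand is not given here, so reads of such pairs cannot be told apart. Ccne2 (17.4%), Rfc2 (15.1%), Rfc4 (12.7%) and Mcm7 (12.6%) share less, while Gins3, Ccne1 and Mcm5 share none. This look at exons was added after the low value of Fen1 had been seen.

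**Figure D3:**
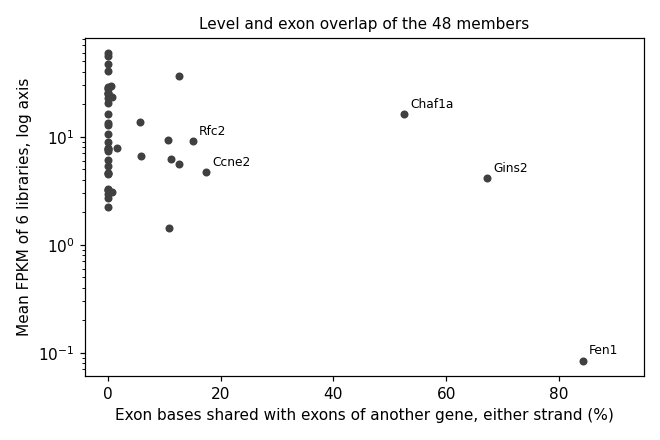
Mean FPKM over the 6 libraries (vertical log axis) against the percentage of exon bases that each of the 48 genes shares with exons of another gene on either strand. Most genes sit at 0%, and Fen1, at 84.2%, has the lowest level, while Gins2 at 67.3% and Chaf1a at 52.5% lie within the range of the other genes.

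Most of the genes were high or low in the same libraries. In ND 2, 43 of the 47 tested genes were above their mean over the 6 libraries, and in HCD 3 41 were. The counts were 27 in HCD 1, 17 in HCD 2, 13 in ND 1 and 2 in ND 3. Over all tested genes the corresponding shares lay between 43.6% and 57.4%. ND 2 was the highest library in 24 of the 47 genes, against 12.1% of all tested genes, and ND 3 was the lowest in 28, against 12.9% of all. Of the 15 genes with E2F-type letters, 7 were highest in ND 2 and 11 were lowest in ND 3. Of the 23 tested genes whose matched promoter lacked the letters, 12 were highest in ND 2 and 14 were lowest in ND 3.

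**Figure D4:**
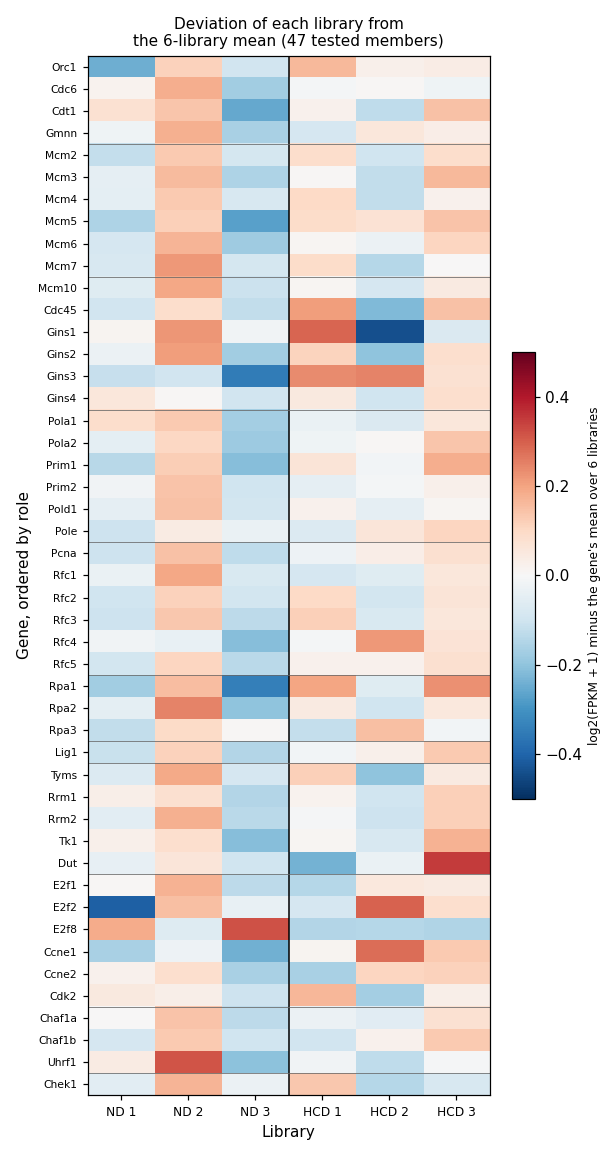
Heat map of log2(FPKM + 1) minus the mean of the gene over the 6 libraries, for the 47 tested genes (rows, by role) in each library (columns; the vertical line parts ND from HCD; red, above the mean; blue, below). The ND 2 column is red in 43 rows and the ND 3 column blue in 45, with E2f8 as an exception in both.

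As a single level, the mean log2(FPKM + 1) of the 47 genes was 3.46, 3.64 and 3.39 in the ND tumours and 3.54, 3.48 and 3.59 in the HCD tumours. The HCD tumours lay inside the ND range. The diet means were 3.495 ± 0.13 and 3.54 ± 0.06 (SD, n = 3), a difference of 0.04. ND 2 was also the most deeply sequenced library and, with HCD 1, the richest in muscle RNA. ND 3, the lowest, had 20622727 fragments and a summed muscle level of 11.9 FPKM. HCD 1 and HCD 2 had 20351635 and 20425574 fragments, fewer than ND 3, and higher levels. HCD 3, with the second highest level, had 20918324 fragments and a summed muscle level of 6.47 FPKM. The part of depth, muscle or other host RNA in this pattern was not tested.

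Genes of mitosis and the spindle, which peak later in the cycle, were read the same way for comparison. Their mean level was 4.39, 4.39 and 4.15 in ND and 4.52, 4.33 and 4.47 in HCD. All 20 had a higher mean in HCD, beside 55.7% of all tested genes, with a median difference of 0.13, and none was called. At an unadjusted p under 0.05, 1 of the 20 passed with higher and 0 with lower values, beside 2.56% and 3.32% of all tested genes. ND 3 was the lowest library in 19 of the 20, as it was in 28 of the 47 replication genes, but the highest was HCD 1 in 13 of the 20 and ND 2 in 1. Mki67, whose protein marks cycling cells, was at 74.7, 80.2 and 62.1 FPKM in ND and at 80.8, 73.7 and 76.0 FPKM in HCD, a difference of 0.09 ± 0.10 (SE). Top2a, the topoisomerase that untangles copied chromosomes, differed by 0.06 and Cdk1, the mitotic kinase, by 0.11. No test of the difference between the 2 lists was made.

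**Figure D5:**
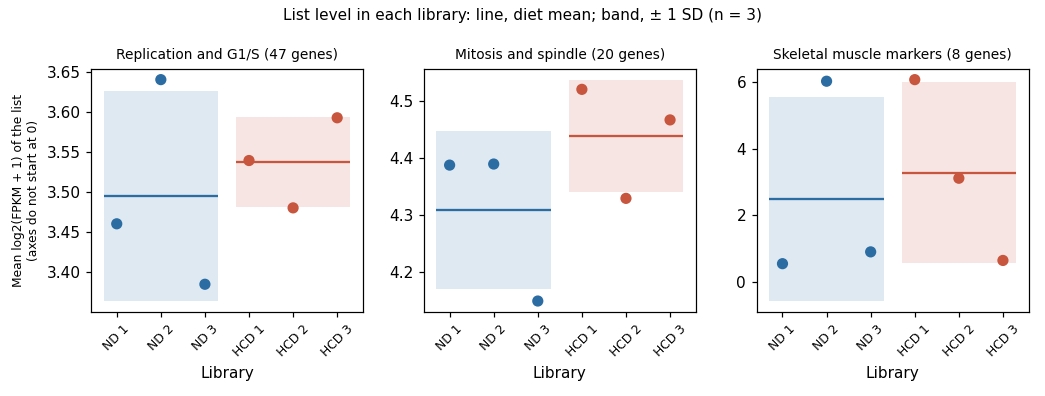
Mean log2(FPKM + 1) of the 47 tested replication and G1/S genes, of 20 mitosis and spindle genes and of 8 skeletal muscle markers in each library (points), with the mean of each diet (line) and 1 SD to either side (band, n = 3). The vertical axes do not start at 0. ND 2 is highest for replication genes, HCD 1 for mitosis genes, and ND 2 and HCD 1 stand at 6.03 and 6.08 for muscle.

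A wider list of 79 other genes of replication and G1/S control, from further licensing and polymerase subunits to D-type cyclins and CDK inhibitors, gave a like picture. Of these, 77 were tested, among them Ccna2, which is also in the mitosis list. The HCD mean was above the ND mean for 55 (71.4%), beside 55.7% of all tested genes, and below it for 22. The median difference was 0.03. None was called. At an unadjusted p under 0.05, 2 of the 77 had higher values and 1 had lower values, counts near or under the 2.56% and 3.32% of all tested genes. The 2 were Cdc7, the kinase that fires licensed origins (0.19 ± 0.06 SE, unadjusted limma p of 0.0210, adjusted p of 0.794), and Hus1, a subunit of a checkpoint clamp (0.17 ± 0.06 SE, unadjusted limma p of 0.0286, adjusted p of 0.794). Cdk6, a G1 kinase that acts with D-type cyclins, had lower values (-0.17 ± 0.06 SE, unadjusted limma p of 0.0341, adjusted p of 0.794). The groups did not overlap for 4 genes with higher and 3 with lower values.

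Cdc7 was at 2.80, 2.76 and 2.81 FPKM in ND and at 3.25, 3.49 and 3.24 FPKM in HCD. Cdk6 was at 7.57, 7.22 and 8.07 FPKM in ND and at 6.81, 6.75 and 6.42 FPKM in HCD. Both had groups that did not overlap, a pattern shown by 5.98% (higher) and 6.13% (lower) of all tested genes.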

How the data were processed

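Tumour RNA, isolated on columns, went into paired-end TruSeq libraries, per the labels' protocols. The authors deposited FPKM values, 1 column a tumour. Build mm10, TopHat2 2.0.9, CASAVA 1.8, edgeR and HTSeq are named in the submitters' processing notes. How these were used, the annotation release and the strand setting are not given in the sources used here.

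Genes averaging 0.5 FPKM or more were tested with limma 3.58.1 in R 4.3.3 on log2(FPKM + 1), diet as the only term, a variance trend, two-sided tests and Benjamini-Hochberg adjustment over 13417 genes at 0.05. This scale understates changes of low genes. The fit was also run on simulated data with known changes added, each gene drawn independently of the others. That run does not bear on differences as small as those of this set. Whole reads were recovered from the value steps for 98.5% of tested genes, within 0.02 of a read and up to 20000 reads. With the summed length of distinct GENCODE M21 exons they came out for 64.1% of the 11133 genes where that length differs from the exon union, against 0.26% with the union. Recovered reads served for depth and for limma-voom, an alternative chosen after seeing the data. Where the annotated length did not return whole reads, the reads used in limma-voom are not fixed. Intervals of single differences are limma's.

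The genes and lists were chosen with earlier results of these data known. For genes of the set, values in every library are given where the groups did not overlap or the unadjusted p was under 0.05. They are also given for the 5 largest differences each way, the 3 highest and 3 lowest means, and Pcna, Mcm2, E2f1 and Ccne1. Dut was added after its values were seen. From the wider list, only Cdc7, Cdk6 and E2f7 are given in every library. Marker lists for B cells, endothelial cells and fibroblasts were read too. Summed endothelial markers were 38.9 to 45.9 FPKM in ND and 43.9 to 77.4 FPKM in HCD, B cell markers 0.572 to 1.48 and 0.791 to 5.15 FPKM, and fibroblast markers 911 to 1110 and 824 to 1019 FPKM. The fibroblast sum was mostly Dcn (682 to 914 FPKM), which was lowest in HCD 2, while the other 5 fibroblast markers were highest there. Same-numbered tumours did not deviate together (correlations of -0.19, 0.14 and 0.06), so the numbers were not taken as pairs. Alternatives were another pseudocount, other filters, scalings, a replicate block, no variance trend and left-out libraries.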

Additional observations from a re-analysis of the deposited data

How the results depend on the processing

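No gene of the set was called under any alternative, and over all genes none was called except 1, not of the set, without ND 2 (0 to 1 over the left-out libraries). The count of genes with a higher mean in HCD ran from 19 to 45 over the left-out libraries and from 27 to 31 under the planned and added alternatives that keep all 6. Gins3, Ccne1, Rfc4 and E2f8 kept their direction in each. Their groups do not overlap, so leaving out libraries could not have reversed it. With the replicate number as a block, no gene was called and the median of the set was 0.03, as without it. The numbers do not pair the tumours, and no tumour correlated best with its own number. Depth limits Fen1, at 9 to 15 reads.

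Gmnn came to -0.00344 with median-ratio scaling, -0.0101 with upper-quartile scaling and -0.00386 with limma-voom. Rrm2 came to -0.00348 and -0.0104 with these scalings, Rpa3 to -0.00154 with upper-quartile scaling and Rpa2 to 0.00156 with a pseudocount of 0.1. Leaving out ND 2 and HCD 1 together gave Uhrf1 0.015, Chaf1a 0.0736, Pola1 0.0316, Cdc6 0.0705, Mcm4 0.0124, Cdk2 -0.0426, Prim2 0.067, Mcm10 0.0654, E2f1 0.112, Rpa2 0.101, Rfc1 0.0533, Mcm7 0.0147, Gins2 0.0418 and Pold1 0.052.

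Over the 6 fits that each leave out 1 library, the sign was not stable for 29 genes, and their lowest and highest differences were Ccne2 -0.0319 to 0.13, Cdc6 -0.109 to 0.0694, Cdk2 -0.0611 to 0.106, Cdt1 -0.0928 to 0.105, Chaf1a -0.077 to 0.0607, Chaf1b -0.0203 to 0.111, Chek1 -0.141 to 0.0101, Dut -0.107 to 0.185, E2f1 -0.103 to 0.0491, Gins1 -0.328 to 0.0376, Gins2 -0.0923 to 0.0982, Gins4 -0.0176 to 0.0806, Gmnn -0.0742 to 0.0958, Mcm10 -0.0757 to 0.0756, Mcm3 -0.0448 to 0.115, Mcm4 -0.0533 to 0.0635, Mcm6 -0.0135 to 0.161, Mcm7 -0.0861 to 0.0689, Pola1 -0.126 to 0.0238, Pold1 -0.0548 to 0.0652, Prim2 -0.0716 to 0.0495, Rfc1 -0.109 to 0.0254, Rpa2 -0.101 to 0.124, Rpa3 -0.0582 to 0.0769, Rrm1 -0.0418 to 0.0819, Rrm2 -0.0595 to 0.0974, Tk1 -0.0191 to 0.128, Tyms -0.0899 to 0.0692 and Uhrf1 -0.228 to 0.0315. The cause of these sign changes was not tested.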
